A study of Bos grunniens and Bos grunniens x Bos taurus with 12 samples.

Results

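The genes of oxidative phosphorylation (OXPHOS) were followed in ribosome profiles (Ribo-seq) of yak and cattle–yak testis. Genes were taken by symbol, namely NDUFA, NDUFB, NDUFC, NDUFS or NDUFV with a number, *SDHA* to *SDHD*, and symbols starting with UQCR, with COX and a number, or with ATP5. A total of 46 of the 20965 genes in the deposited tables matched. They were 19 subunits of complex I, 2 of complex II, 4 of complex III, 6 of complex IV and 6 of complex V, plus *ATP5IF1*, the inhibitor of ATP synthase, and 8 assembly factors of complex IV that share the COX prefix but are no subunits. Only 13662 genes had a symbol, and many OXPHOS genes had none. A further 76 rows without a symbol were described in the tables as a subunit or as cytochrome c and carried 46 names, 2 of them of cytochrome c. These are given as rows named by their description, a step added after the files were seen. Up to 4 rows shared a name, and reads of near-identical copies may be split between them, so the row with the most counts stood for each name and its values are uncertain where copies exist. No gene encoded by mitochondrial DNA matched its usual symbols, so all subunits described here are encoded in the nucleus.

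The 5 complexes sit in the inner mitochondrial membrane. Complexes I and II pass electrons to ubiquinone, complex III hands them to cytochrome c, complex IV (cytochrome c oxidase) reduces oxygen, and complex V makes ATP from the proton gradient. Several small subunits of complex IV, and cytochrome c itself, exist in mammals in a form found in most tissues and a second form made by germ cells. *COX6B2*, *COX7B2* and *COX8C* are the germ-cell forms of *COX6B1*, *COX7B* and *COX8A*, and *CYCT* is that of *CYCS*. *COX7A1* and *COX6A2* are forms of heart and skeletal muscle, and *NDUFA4L2* is known from hypoxia.

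Testis was taken from 3 yaks of 6 months (juvenile), 3 of 18 months (puberty), 3 of 4 years (sexual maturity) and 3 cattle–yaks, to which the labels give 4 years and sexual maturity. The cattle–yak is the sterile male hybrid of a Jersey bull and a Gannan yak cow, in which spermatogenesis is arrested. The sources name no treatment and no introduced allele. Per the study's methods the yak testes were taken after euthanasia and those of cattle–yak by castration, while the labels give castration for all animals. If the methods hold, collection and group cannot be told apart in the comparison of cattle–yak with yak. The whole organ was used, so fewer cells of a type and less translated RNA per cell cannot be told apart in any value below.

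The total count per library was 16304058 to 17862516 in yak at 4 years, 21309151 to 37167651 in the younger yaks, and 38437889 to 52616039 in cattle–yak. The cell makeup of the groups differed. The summed FPKM (counts scaled by gene length and library total) of the 7 round spermatid markers with a symbol was 1693 to 2467 in yak at 4 years, 3.42 to 9.12 in cattle–yak and 0.33 to 0.77 at 6 months. At 18 months it was 1.70, 1039 and 6.15 in libraries 1, 2 and 3, so library 2 stood apart from the other 2 of its group. Of these 7 markers, 3 to 4 were at 0 in each library of 6 months and none in yak at 4 years. The 7 spermatocyte markers summed to 688 to 763 FPKM in yak at 4 years, 301 to 438 in cattle–yak and 124 to 185 at 6 months, and the 7 spermatogonia markers to 647 to 941, 1471 to 1626 and 306 to 453. The 5 Sertoli cell markers summed to 660 to 915 FPKM in yak at 4 years, 1292 to 1616 in cattle–yak and 6154 to 7577 at 6 months. The 3 Leydig cell markers summed to 86.3 to 218, 672 to 1134 and 1689 to 2654 FPKM in the same order, and the 6 peritubular myoid cell markers to 363 to 413, 1313 to 2009 and 335 to 513. The 5 macrophage markers were lower in cattle–yak, with 234 to 267, 54.7 to 67.1 and 77.3 to 93.3 FPKM in that order. The 6 endothelial cell markers overlapped between the adult groups, with 13.8 to 18.4, 15.1 to 21.1 and 27.7 to 38.6 FPKM. The part of these differences in the results below was not tested.

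At the level of single genes the set spanned a wide range. The mean over the 12 libraries was highest for *UQCR10*, a small subunit of complex III, with 769 FPKM, followed by *ATP5IF1* with 703 and the complex I subunit *NDUFA3* with 587 FPKM. It was lowest for *NDUFA4L2* with 3.52 FPKM and *COX6A2*, which had 2 counts in 1 yak library of 4 years, 2 counts in 1 cattle–yak library and none in the other 10. Within complex I at 4 years, the FPKM of the 19 subunits ran from 25.04 for *NDUFV1*, which binds NADH, to 1056 for *NDUFA3*. The 37 subunits with a symbol took 0.35% to 0.48% of all counts at 6 months, 0.48% to 0.56% at 18 months, 0.46% to 0.50% at 4 years and 0.70% to 0.75% in cattle–yak. The cattle–yak libraries were therefore above all 9 yak libraries in this share. The study reports a higher alignment rate in cattle–yak than in yak, and a different main length of the footprints. Reads of both groups were aligned to a yak genome. The part of these differences in the share and in the comparisons below was not tested.

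**Figure D1:**
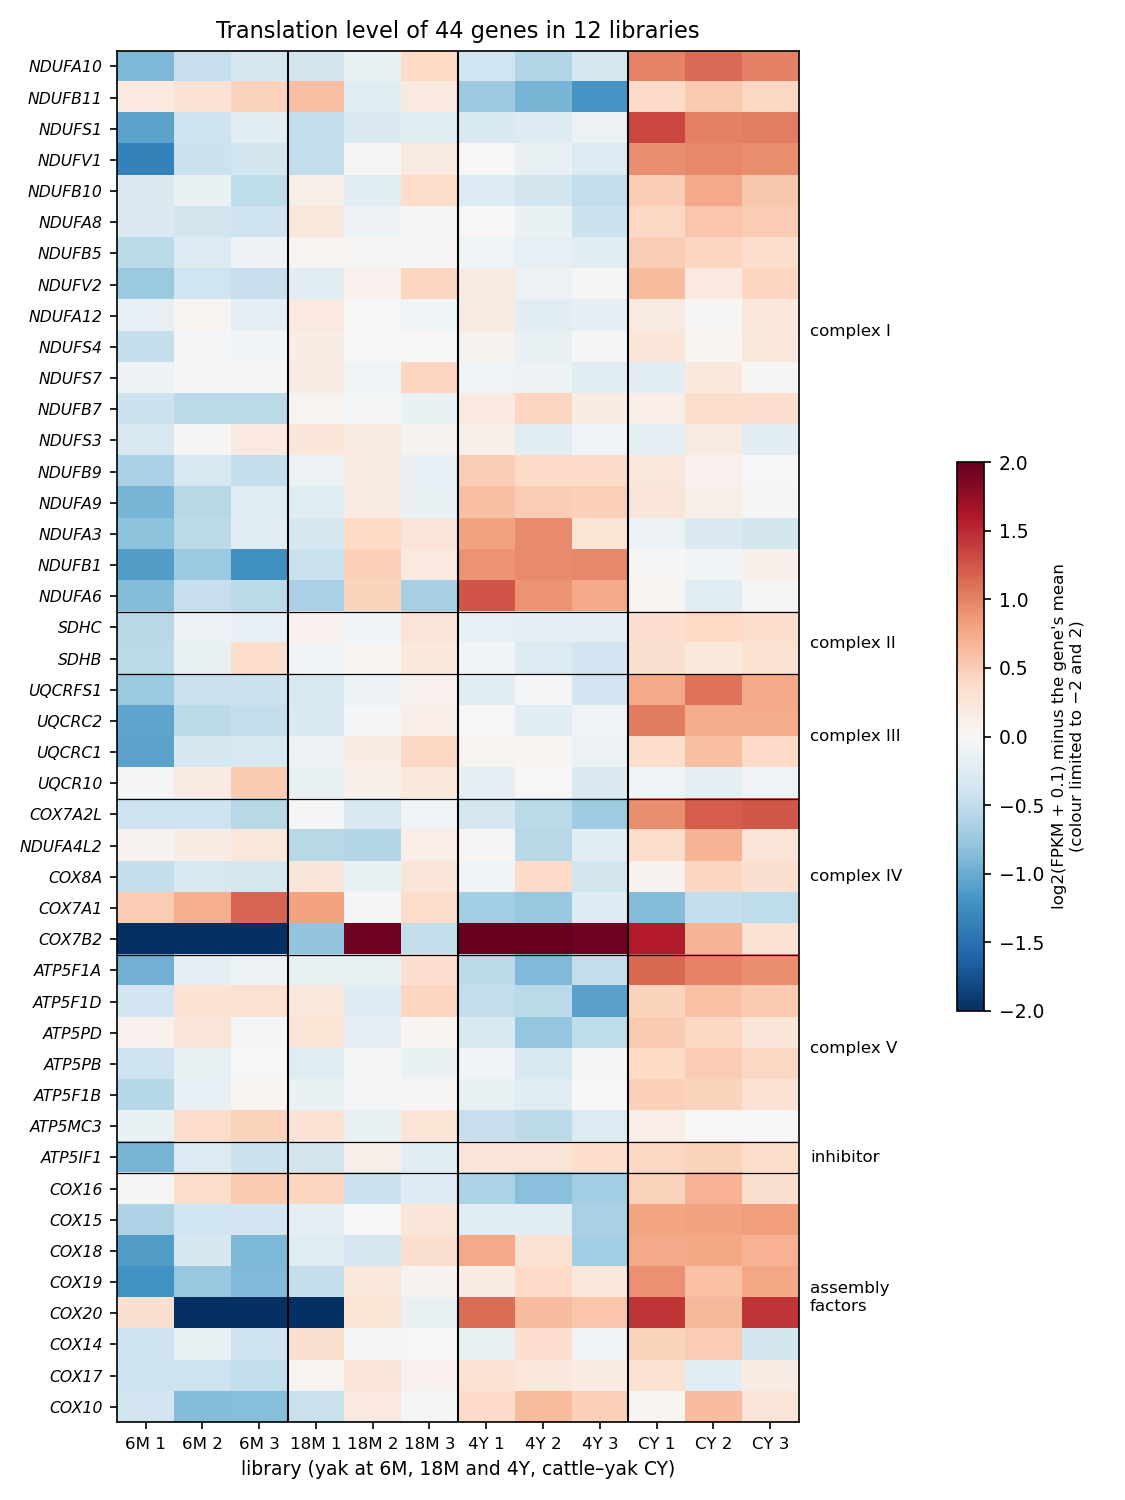
Each row is a gene of the set and each column a library. Colour gives log2(FPKM + 0.1) minus the mean of the gene over the 12 libraries, for 44 of the 46 genes, without *COX6A2*. The cattle–yak columns are red over most of complexes I, III and V, whereas *COX7B2* is blue at 6 months and darkest red in yak at 4 years and in library 2 of 18 months.

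The comparison of cattle–yak with yak at 4 years asked how the translation level of these genes differs in the arrested testis. After the filter on low counts, 45 of the 46 genes were tested, and *COX6A2* was not. In edgeR's quasi-likelihood test, adjusted by Benjamini-Hochberg, 10 were higher in cattle–yak and 2 lower under the rule for differentially translated genes (DTGs), an adjusted p under 0.05 with a log2 fold change of 1 or more. Among all 16498 genes tested, 17.1% were higher and 27% lower by this rule, 44% in all. At an adjusted p below 0.05 and any size, 25 of the 45 were higher, 5 lower and 15 did not pass, against 31.5% higher and 34.2% lower, or 65.7%, of all genes. The FPKM of the 2 groups did not overlap for 26 genes that were higher and 6 that were lower, against 34.3% and 36.8% of all genes. The median log2 fold change was 0.52 over the set and -0.00 over all genes tested. Of the 25 higher genes, 23 passed whichever of the 6 libraries was left out, and *NDUFA12* and *NDUFV2* did not.

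**Figure D2:**
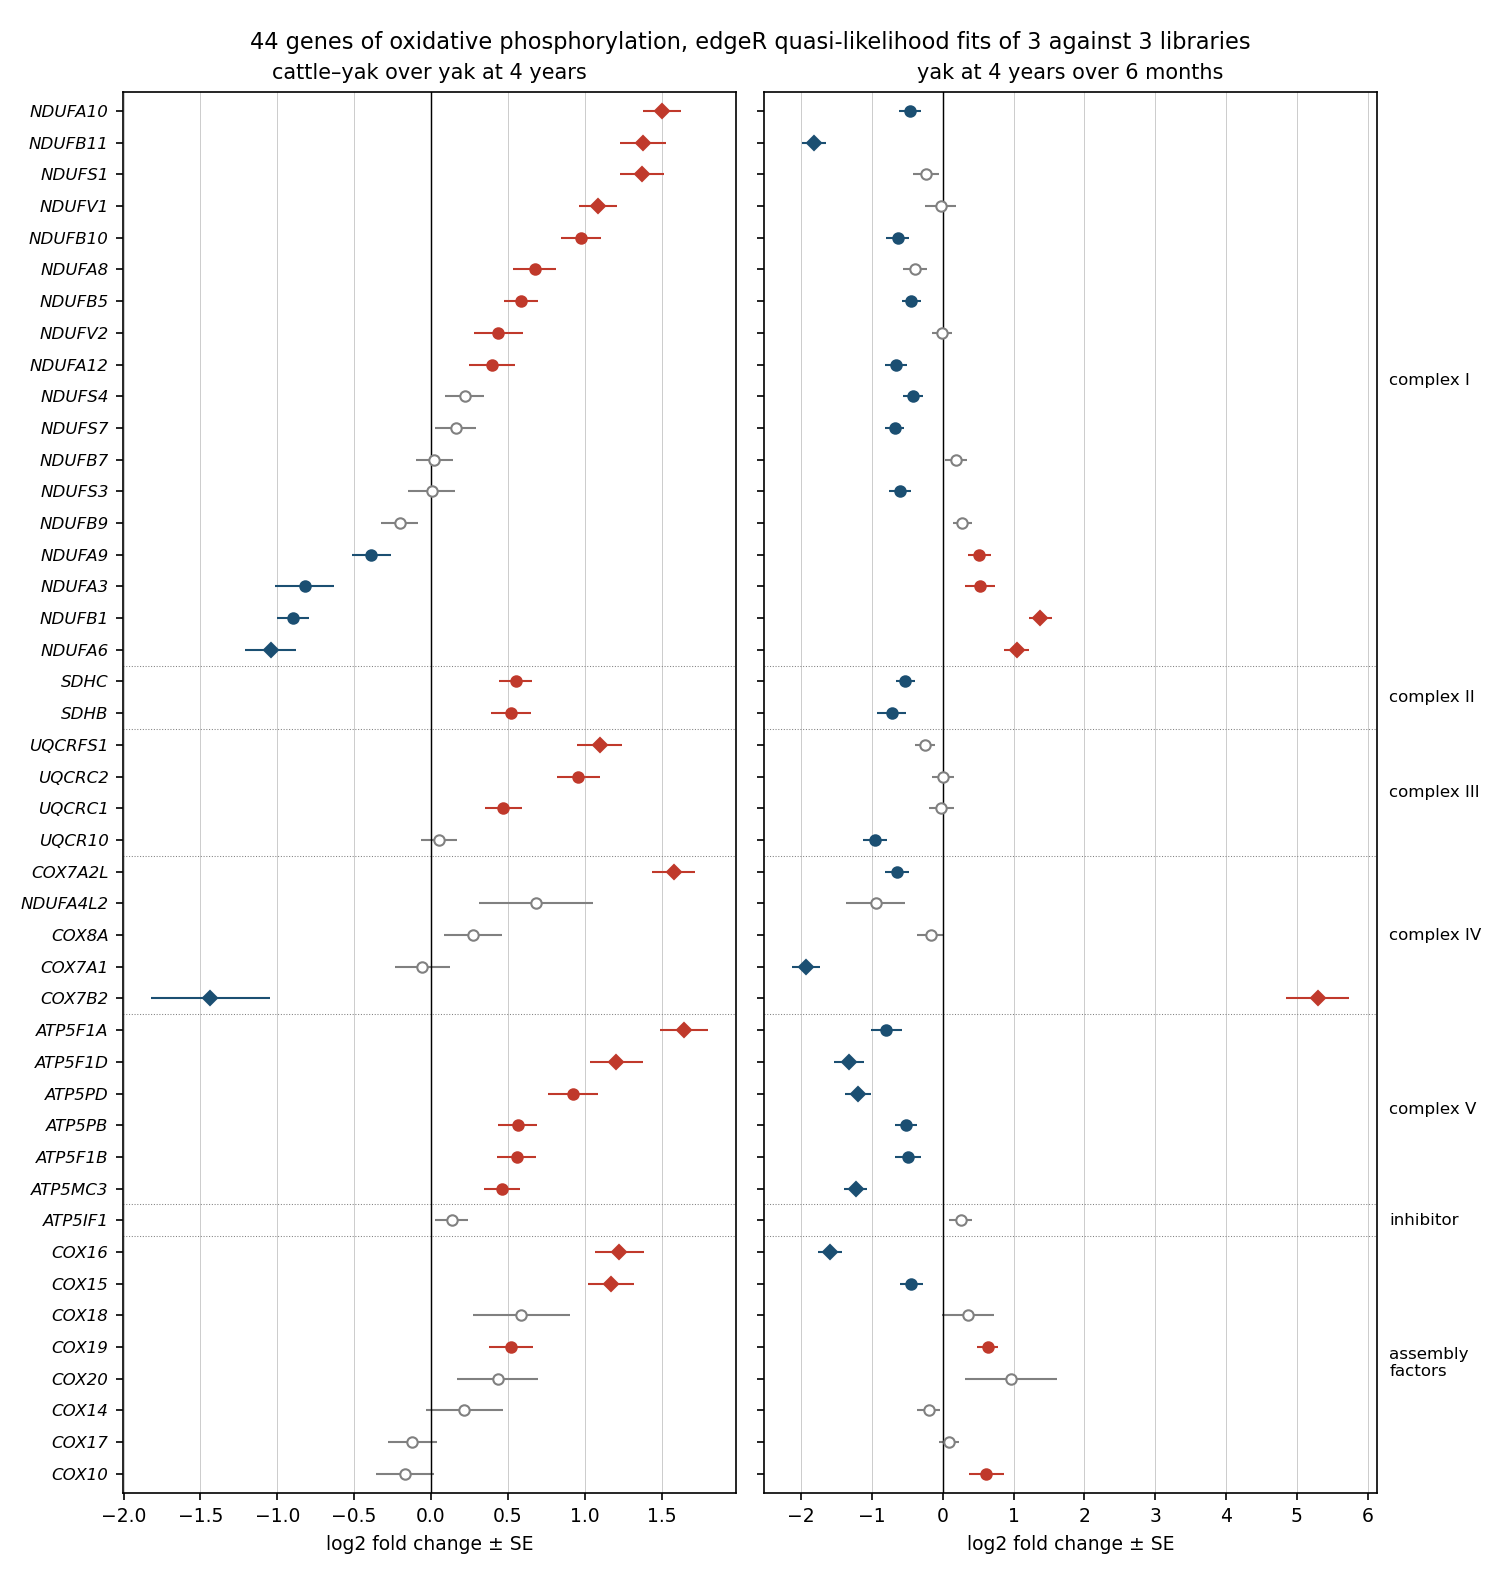
Log2 fold change with its standard error for 44 of the 45 genes tested, by complex, in cattle–yak over yak at 4 years (left) and yak at 4 years over 6 months (right). Red and blue mark genes higher and lower at an adjusted p below 0.05, diamonds mark DTGs and open grey circles genes that did not pass. On the left most points lie above 0 and *COX7B2* and 4 subunits of complex I are the blue ones. Both panels use the same 3 libraries of yak at 4 years, and most of the blue points on the right did not pass when libraries were scaled by size alone.

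Complex I held subunits that moved in both directions. Of its 19 subunits, 10 were higher in cattle–yak, 4 lower and 5 did not pass, against 31.5% higher and 34.2% lower of all genes. *NDUFA10*, an accessory subunit, had 104, 90.9 and 107 FPKM in yak at 4 years and 272, 301 and 274 in cattle–yak. The groups were far apart, with a log2 fold change of 1.5 ± 0.12 (SE, n = 3 per group) and an adjusted p of 1.5e-05. *NDUFS1*, the largest of the iron–sulphur subunits, had 79.1, 81.6 and 89.7 FPKM in yak and 247, 195 and 197 in cattle–yak, or a log2 fold change of 1.37 ± 0.14. *NDUFB11*, in the membrane arm, rose by a log2 fold change of 1.38 ± 0.15, and *NDUFV1* by 1.09 ± 0.13. *NDUFV2*, *NDUFB10*, *NDUFA8*, *NDUFB5* and *NDUFA12* were higher by 0.40 to 0.98 on the log2 scale. *NDUFS3* and *NDUFS7*, core subunits of complex I, did not pass, with log2 fold changes of 0.00 ± 0.15 and 0.16 ± 0.13.

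The 4 subunits of complex I that were lower in cattle–yak are all accessory subunits. *NDUFA6* had 547, 425 and 388 FPKM in yak at 4 years and 234, 198 and 226 in cattle–yak. The log2 fold change was -1.04 ± 0.17 with an adjusted p of 0.00071, and -0.79 without library 1 of yak at 4 years or -0.97 without library 2 of cattle–yak, so that it was then no DTG. *NDUFB1* had 515, 537 and 538 FPKM in yak and 281, 268 and 300 in cattle–yak, which gave -0.90 ± 0.10 with a spread within groups far below the difference. *NDUFA3* fell from 955, 1056 and 668 FPKM to 508, 451 and 429, or -0.82 ± 0.19 on the log2 scale. *NDUFA9* was lower by a log2 fold change of -0.39 ± 0.13 (adjusted p = 0.025), which passed in only 1 of the 6 fits that left out a library.

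In complexes II and III the subunits tested were higher or did not pass. *SDHB*, the iron–sulphur subunit of succinate dehydrogenase, had 148, 126 and 118 FPKM in yak at 4 years and 192, 177 and 190 in cattle–yak. Its membrane anchor *SDHC* had 115 to 117 and 166 to 173 FPKM. The log2 fold changes were 0.52 ± 0.13 and 0.55 ± 0.11. In complex III, *UQCRFS1*, the Rieske iron–sulphur protein, had 93.8, 106 and 83.3 FPKM in yak and 184, 232 and 185 in cattle–yak, or a log2 fold change of 1.10 ± 0.15. The core proteins *UQCRC2* and *UQCRC1* were higher by 0.96 ± 0.14 and 0.47 ± 0.12. *UQCR10* did not pass, with 0.05 ± 0.12.

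All 6 subunits of complex V with a symbol were higher in cattle–yak, against 31.5% of all genes, each in all 6 fits that left out a library. *ATP5F1A*, the alpha subunit of the catalytic head, had the largest log2 fold change of the 45 genes. It had 235, 183 and 241 FPKM in yak at 4 years and 742, 669 and 640 in cattle–yak, with a log2 fold change of 1.65 ± 0.16 and an adjusted p of 3.8e-05. *ATP5F1B*, the beta subunit that joins it in the same head, differed less, with 429, 404 and 473 FPKM against 668, 651 and 585 and a log2 fold change of 0.56 ± 0.13. *ATP5F1D*, of the central stalk, was higher by 1.21 ± 0.17, *ATP5PD* and *ATP5PB* of the peripheral stalk by 0.92 ± 0.16 and 0.56 ± 0.13, and *ATP5MC3* of the membrane ring by 0.46 ± 0.12. *ATP5IF1*, which blocks ATP hydrolysis by the enzyme, did not pass, with 807 to 863 FPKM in yak and 870 to 930 in cattle–yak and a log2 fold change of 0.14 ± 0.11.

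Among the general and muscle forms of complex IV, *COX7A2L* stood out. This protein, which joins complexes III and IV into supercomplexes, had 121, 107 and 95.2 FPKM in yak at 4 years and 297, 362 and 368 in cattle–yak, or a log2 fold change of 1.58 ± 0.14 (adjusted p = 2.5e-05). *COX8A* did not pass, with 0.27 ± 0.19, and its groups overlapped. *COX7A1* had 65.3, 62.2 and 87.9 FPKM in yak and 57.4, 74.8 and 73.5 in cattle–yak, or a log2 fold change of -0.06 ± 0.18. *NDUFA4L2* was low in all libraries, at 2.24 to 5.48 FPKM, and did not pass with 0.69 ± 0.37. Of the 8 assembly factors, 3 were higher and 5 did not pass, while 31.5% of all genes were higher. *COX16* and *COX15*, which acts in the making of haem A, were higher by log2 fold changes of 1.23 ± 0.16 and 1.17 ± 0.15, and *COX19* by 0.52 ± 0.14. *COX10*, *COX14*, *COX17*, *COX18* and *COX20* had log2 fold changes of -0.17 to 0.59.

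The rows named by their description filled gaps in the complexes. Of 43 subunit names with no symbol, 1 row each, 42 were tested, 23 were higher in cattle–yak and 5 lower at any size, against 31.5% and 34.2% of all genes, and their median log2 fold change was 0.44. *SDHA*, which carries the flavin of complex II, had 66.8, 83.7 and 65.6 FPKM in yak at 4 years and 222, 235 and 263 in cattle–yak, or a log2 fold change of 1.73 ± 0.14. *UQCR11*, a small subunit of complex III, was higher by 1.84 ± 0.22. Of the 9 names of complex V, 6 were higher and none was lower. The 5 lower names were *NDUFB4* with a log2 fold change of -1.25 ± 0.12, and *COX6B2*, *COX7A2*, *COX6B1* and *COX7C* of complex IV. *COX7C* had 3 rows with values that jumped between libraries of 1 group, and no difference is read from it.

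Of the 3 germ-cell forms of complex IV, 2 were lower in cattle–yak and the third was not, while 34.2% of all genes were lower. *COX7B2*, the only one with a symbol, had 1.44, 0.70 and 2.06 FPKM at 6 months, 8.59, 57.9 and 10.8 at 18 months, 111, 71.8 and 57.7 at 4 years and 45.1, 24.1 and 18.6 in cattle–yak. The 2 adult groups did not overlap, and library 2 of 18 months reached the lowest adult yak library. The log2 fold change of cattle–yak over yak at 4 years was -1.43 ± 0.39 (adjusted p = 0.011). It rested on library 1 of the yak group, without which it was -1.03 with an adjusted p of 0.051, and with all 12 libraries in 1 fit the adjusted p was 0.091. Since *COX7B2* was still at 250 and 192 counts in the 2 lower cattle–yak libraries, against 7 to 17 at 6 months, counting error was small in the adult groups and larger in the juvenile one. Between the adult groups the round spermatid markers moved the same way, from 1693 to 2467 FPKM down to 3.42 to 9.12, as did the spermatocyte markers, from 688 to 763 down to 301 to 438, and their part in this result was not tested.

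*COX6B2*, a row named by its description (ENSBGRG00000012640), had 6.90, 7.25 and 5.22 FPKM at 6 months, 16.6, 80.9 and 15.6 at 18 months, 159, 169 and 124 at 4 years and 21.8, 16.7 and 13.4 in cattle–yak. It showed the largest fall of the germ-cell forms, with a log2 fold change of -3.10 ± 0.23 and an adjusted p of 9.7e-06 that stayed below 0.05 without any 1 library. The cattle–yak values lay on either side of those of libraries 1 and 3 of 18 months. *COX8C* (ENSBGRG00000021086) differed from both. It had 0.65, 9.57 and 4.09 FPKM at 6 months, 23.6, 78.2 and 77.9 at 18 months, 93.3, 81.8 and 71.3 at 4 years and 79.6, 72.6 and 75.2 in cattle–yak. The adult groups overlapped, and the log2 fold change was -0.11 ± 0.16 (adjusted p = 0.58), which with this error does not show that they were equal. Library 3 of 18 months held *COX8C* at the adult level with a round spermatid sum of 6.15 FPKM, and the cattle–yak libraries did so with sums of 3.42 to 9.12. The spermatogonia and spermatocyte markers summed to 2070 and 229 FPKM in that library. In cattle–yak they summed to 1471 to 1626 and 301 to 438, and in yak at 4 years to 647 to 941 and 688 to 763. The part of the cell makeup in these *COX8C* levels was not tested.

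*CYCT*, the cytochrome c of germ cells (ENSBGRG00000000328, named by its description), had 1.12, 1.71 and 1.13 FPKM at 6 months, 9.32, 43.7 and 29.2 at 18 months, 88.7, 77.9 and 60.5 at 4 years and 25.6, 21.1 and 16.2 in cattle–yak. It was lower in cattle–yak by a log2 fold change of -1.84 ± 0.24 (adjusted p = 0.00023). *CYCS*, the cytochrome c of most tissues (ENSBGRG00000001429), had 97.6, 85.7 and 125 FPKM in yak at 4 years and 319, 250 and 305 in cattle–yak, or a log2 fold change of 1.52 ± 0.17. The 2 forms thus lay in opposite directions, and neither pair of adult groups overlapped. Among the general partners in complex IV the directions were mixed. *COX7B* (ENSBGRG00000015336) was higher in cattle–yak by 1.36 ± 0.14, with 281, 259 and 220 FPKM in yak against 671, 649 and 624. *COX6B1* (ENSBGRG00000024995) was lower by -0.84 ± 0.11, with 710, 681 and 713 FPKM against 361, 411 and 392.3, and a second row of that name with fewer counts went the other way, with 0, 38.4 and 39.7 FPKM against 194, 115 and 95.5.

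**Figure D3:**
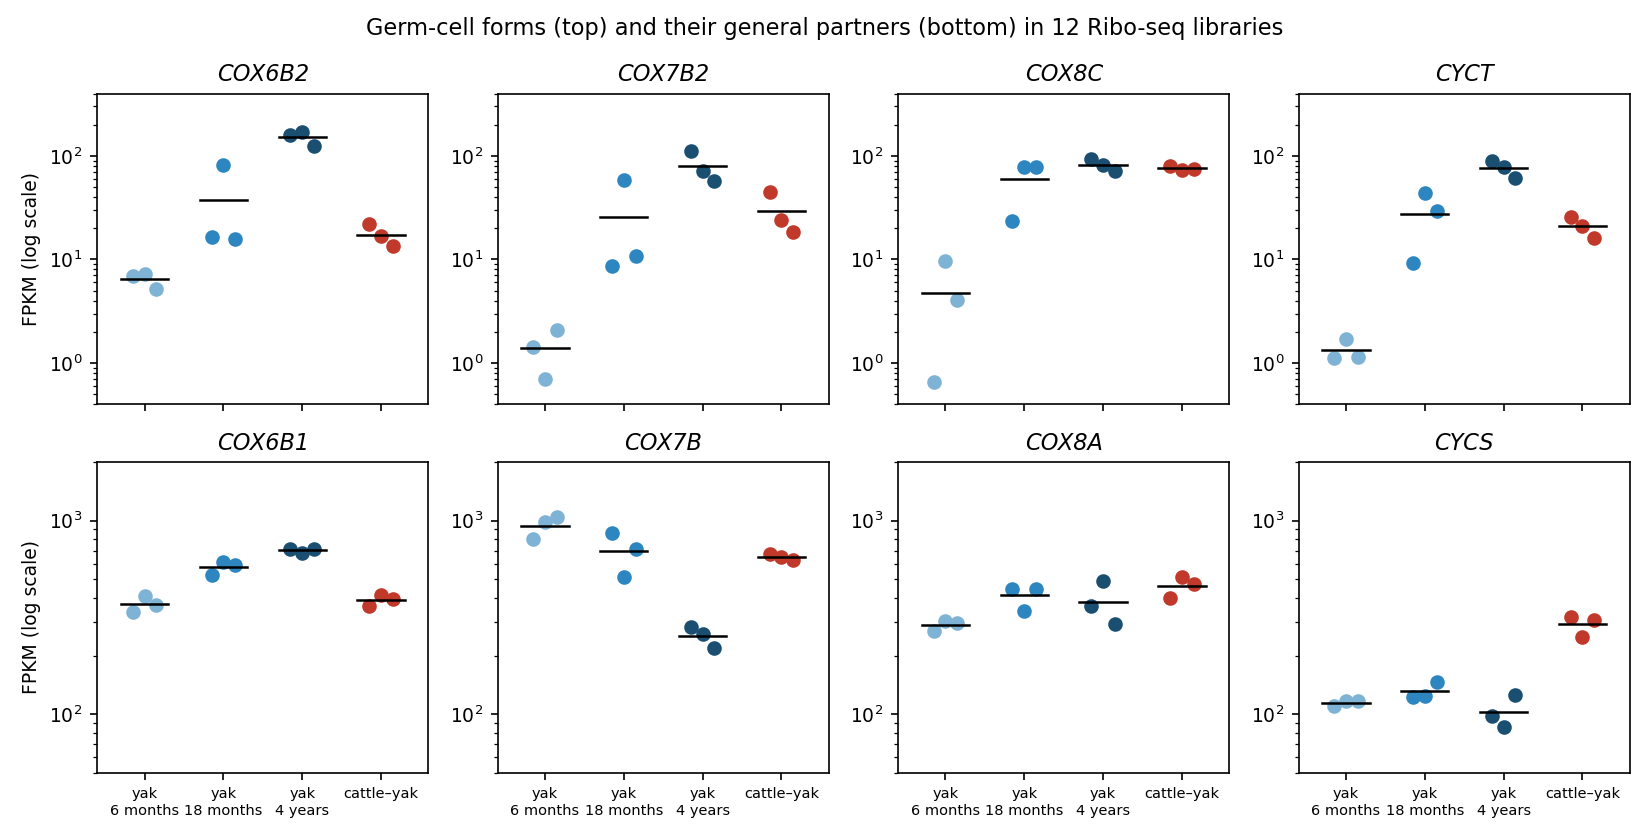
FPKM on a log axis in the 3 libraries of each group for 4 germ-cell forms (top row) and the general form of each below it. Points are libraries and bars are means. *COX6B2*, *COX7B2* and *CYCT* are lower in cattle–yak than in yak at 4 years, the adult groups overlap for *COX8C*, and *COX7B* and *CYCS* are higher in cattle–yak while *COX6B1* is lower.

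The balance of each special form with its general partner was taken per library as the log2 ratio of FPKM + 0.1, which compares 2 genes per length. It was tested across the 4 groups for 7 pairs with a two-sided exact permutation test of F over all 15400 ways to deal the 12 libraries into 4 groups of 3, adjusted over the 7 pairs. A pair of groups alone, 3 against 3, cannot go below 0.10, so no pair of groups was tested. For *COX7B2*/*COX7B* the log2 ratio was -9.40 ± 0.76 at 6 months (SD, n = 3), -5.27 ± 1.87 at 18 months and -1.71 ± 0.32 at 4 years, and cattle–yak had -4.57 ± 0.61, with an adjusted permutation p of 0.0018. The germ-cell form was thus nearest to its partner in yak at 4 years, and the cattle–yak libraries lay between -5.06 and -3.89, apart from the adult yak libraries at -1.93 to -1.34. For *COX6B2*/*COX6B1* the means were -5.83 ± 0.26, -4.37 ± 1.27, -2.23 ± 0.26 and -4.50 ± 0.42 (adjusted permutation p = 0.0045). For *COX8C*/*COX8A* they were -6.53 ± 1.79, -2.96 ± 1.12, -2.19 ± 0.34 and -2.59 ± 0.25 (adjusted permutation p = 0.012), and here the 2 adult groups overlapped.

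The forms of muscle and other tissues had another order. *COX7A1*/*COX7A2* was highest at 6 months, where the log2 ratio was -0.42 ± 0.20, followed by -1.56 ± 0.95 at 18 months, -2.34 ± 0.17 in cattle–yak and -3.37 ± 0.34 in yak at 4 years (adjusted permutation p = 0.0018). Between the adult groups it was *COX7A2* that differed, with 714, 789 and 703 FPKM in yak and 330, 341 and 363 in cattle–yak (ENSBGRG00000006074, log2 fold change -1.08 ± 0.11), while *COX7A1* did not pass. *COX4I2*/*COX4I1* was also lowest in yak at 4 years, with -8.94 ± 0.06 against -7.30 ± 0.77 in cattle–yak (adjusted permutation p = 0.012), on *COX4I2* levels of 1.26 to 8.87 FPKM. *NDUFA4L2*/*NDUFA4* was lowest at 18 months with -8.28 ± 0.27 and highest in yak at 4 years with -7.26 ± 0.16 (adjusted permutation p = 0.0035). It was -7.67 ± 0.23 at 6 months and -7.48 ± 0.16 in cattle–yak. In yak at 4 years *NDUFA4* had a mean of 456 FPKM, against 796 at 6 months, 876 at 18 months and 849 in cattle–yak. The means of *NDUFA4L2* were 2.89 FPKM against 3.78, 2.76 and 4.64 in that order. *COX6A2*/*COX6A1* did not pass (adjusted permutation p = 0.22), and its values are set by the pseudocount because *COX6A2* was near 0.

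**Figure D4:**
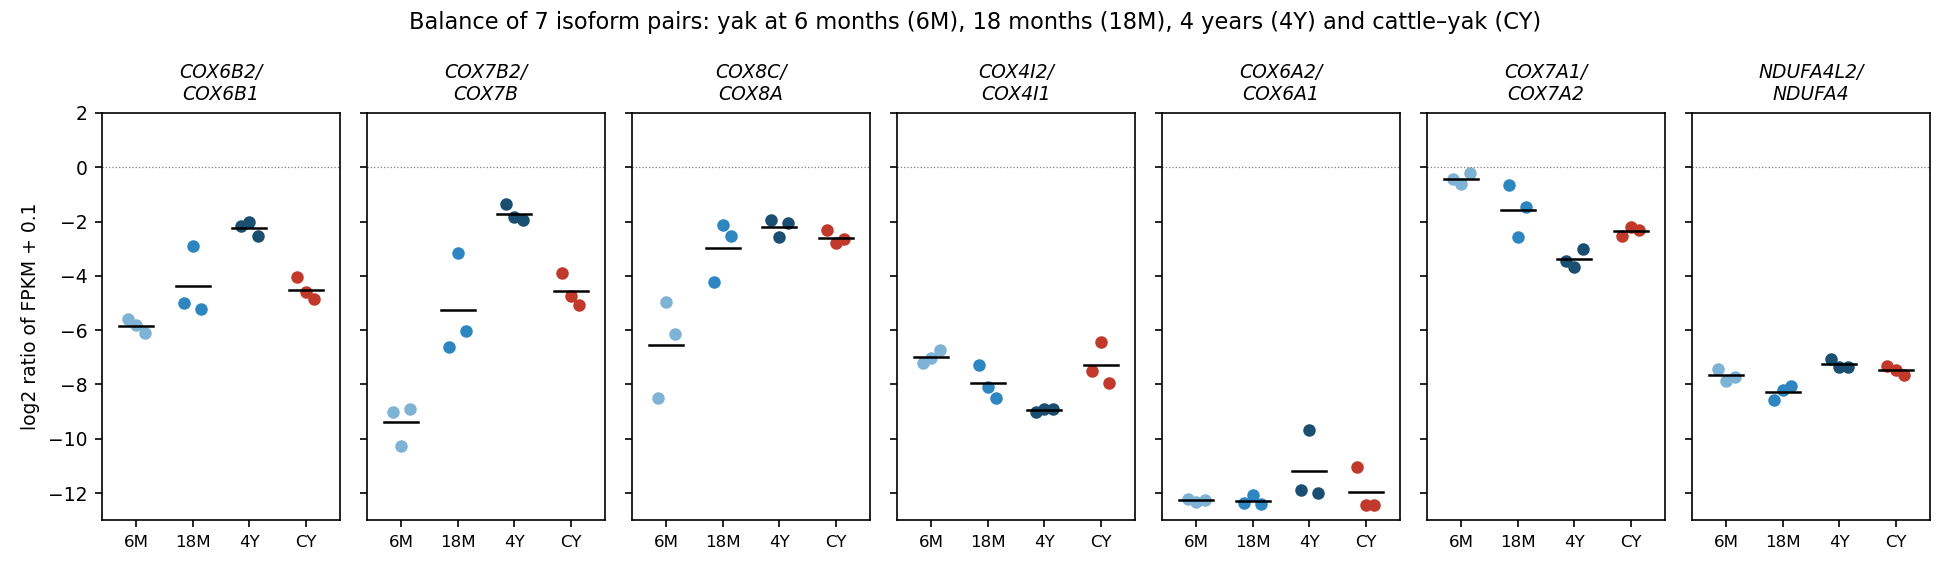
Log2 ratio of FPKM + 0.1 of a special form over its general partner, for 7 pairs, in the 12 libraries. Points are libraries, bars are group means and the dotted line marks equal level. In the 3 pairs on the left the ratio is lowest at 6 months and highest in yak at 4 years, and cattle–yak lies well below the adult yak for *COX6B2* and *COX7B2* but not for *COX8C*.

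Age in the yak was followed by 3 comparisons. Between 6 and 18 months none of the 45 genes tested passed, by either rule. Only 10 of 14874 genes did (0.0672%) in edgeR's quasi-likelihood test. An unadjusted p below 0.05 was found for 4 of the 45, against 3837 of the 14874 genes. Between 18 months and 4 years none of the 45 passed either, against 6 of 16175 genes (0.0371%). Here 16 of the 45 had an unadjusted p below 0.05, against 5731 of the 16175 genes. Of all genes, 0.0202% were higher and 0.0471% lower in the first comparison, and 0% and 0.0371% in the second, at any size and as DTGs alike. The FPKM of 18 genes lay higher without overlap at 18 months than at 6 months and that of none lower, against 29.7% and 8.05% of all genes. From 18 months to 4 years it was 8 higher and 14 lower, against 31% and 23.4%. DESeq2 called 1 of the 45 a DTG in the first and 3 in the second. The share of all genes called by DESeq2 was not taken, so these counts cannot be set against the edgeR shares. On simulated data 13.8% of the changed genes were found in the first comparison and 0% in the second, so the lack of calls does not show that levels were alike. Without library 2 of 18 months, 19 of the 45 passed between 18 months and 4 years. In that fit 30.2% of all genes were higher and 26% lower. Of the 19, 5 were higher at 4 years, namely *COX7B2* by a log2 fold change of 2.84 ± 0.37, *COX20*, *NDUFA6*, *NDUFB1* and *NDUFA9*, and 14 were lower, led by *NDUFB11* with -1.59 ± 0.25 and *COX7A1* with -1.40 ± 0.27.

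The comparison of 4 years with 6 months was added after the data were seen, because library 2 of 18 months stood apart. In edgeR's quasi-likelihood test, adjusted by Benjamini-Hochberg, 3 of the 45 genes were higher DTGs at 4 years and 6 lower, against 31% higher and 24.7% lower, or 55.7%, of the 16133 genes tested. At any size, 7 were higher, 22 lower and 16 did not pass, against 37.7% and 34.8%, or 72.5%. The FPKM did not overlap for 18 higher and 7 lower genes, against 53.1% and 23.3% of all genes. These counts depend on the scaling of the libraries. With library size alone in place of TMM, the median of all genes moved from 0.08 to 0.64 on the log2 scale, 15 of the 45 genes were higher and 6 lower, against 49.8% and 21.5% of all genes in that fit, and the median of the set turned from -0.42 to 0.14. Relative to the median of all genes the set was at -0.49 by TMM and -0.50 by library size. The 7 genes higher and 6 of the genes lower by TMM kept their call with library size alone, the other 16 lower genes did not pass, and 8 genes that had not passed became higher.

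The 7 genes higher at 4 years under both scalings were *COX7B2*, *NDUFB1*, *NDUFA6*, *COX19*, *COX10*, *NDUFA3* and *NDUFA9*. Of these, *COX10*, *NDUFA3* and *NDUFA9* lost the call by TMM when some 1 library was left out. *COX7B2* had a log2 fold change of 5.30 ± 0.44, *NDUFB1* of 1.38 ± 0.16 and *NDUFA6* of 1.04 ± 0.18, all relative to TMM. *NDUFB1*, for example, had 128, 167 and 118 FPKM at 6 months and 515, 537 and 538 at 4 years. This comparison shares the libraries of 4 years with that of cattle–yak. The 6 genes lower under both scalings were *COX7A1*, *NDUFB11*, *COX16*, *ATP5F1D*, *ATP5MC3* and *ATP5PD*. *COX7A1* had 149, 173 and 235 FPKM at 6 months against 65.3, 62.2 and 87.9 at 4 years, a log2 fold change of -1.93 ± 0.20. *NDUFB11* fell from 236, 252 and 284 FPKM to 125, 108 and 91.0, or -1.81 ± 0.17, and had 270 to 296 FPKM in cattle–yak. *COX8B*, another form of muscle named by its description, had 14.4 to 16.2 FPKM at 6 months, 0.5 to 1 at 4 years and 1.1 to 1.75 in cattle–yak. Of the germ-cell forms named by their description, *COX6B2* was higher at 4 years than at 6 months by a log2 fold change of 3.97 ± 0.22, *COX8C* by 3.53 ± 0.60 and *CYCT* by 5.26 ± 0.29. With library size alone the values were 4.54, 4.05 and 5.81. The partner *COX7B* was lower at 4 years, by -2.46 ± 0.17 with TMM and -1.89 ± 0.18 with library size, and *COX6B1* was higher, by 0.35 ± 0.14 and 0.92 ± 0.16. *CYCS* was lower with TMM, at -0.73 ± 0.17, and did not pass with library size, at -0.16 ± 0.18. Over the 43 names with no symbol, 9 were higher and 21 lower by TMM, against 37.7% and 34.8% of all genes, and 17 and 11 with library size alone, against 49.8% and 21.5%.

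The genes most like *COX7B2* were sought over the 12 libraries by Pearson's correlation of log2(FPKM + 0.1), among the 44 other genes with a mean of at least 1 FPKM. They were *NDUFB9* with r = 0.94, *NDUFA9* with 0.93, *NDUFB1* with 0.91, and the assembly factors *COX17* with 0.89 and *COX10* with 0.88. *COX7A1* was the least like it, with r = -0.83. These values describe 12 libraries that fall into groups and share depth and scaling, and no test was made. *NDUFB9* itself had 198 to 247 FPKM at 6 months, 278 to 345 at 18 months, 403 to 435 at 4 years and 309 to 364 in cattle–yak, and did not pass against cattle–yak. Against 6 months it did not pass by TMM, with a log2 fold change of 0.28, and was higher with library size alone, with 0.84.

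Other mitochondrial genes were set beside the complexes. Of 18 enzymes of the tricarboxylic acid cycle and pyruvate dehydrogenase, 14 were DTGs higher in cattle–yak and 1 was lower, against 17.1% and 27% of all genes, and the median was 1.52 on the log2 scale. *PDHA1*, the general E1 alpha subunit of pyruvate dehydrogenase, was at 24.1 ± 2.58 FPKM in yak at 4 years and 142 ± 14.3 in cattle–yak (SD, n = 3), a log2 fold change of 2.58 ± 0.15. *PDHA2*, its germ-cell form, was at 164 ± 40.7 and 0.933 ± 0.612 FPKM, a log2 fold change of -7.40 ± 0.54. *DLD* and *IDH3A* were higher by 2.22 ± 0.12 and 1.97 ± 0.12. From 6 months to 4 years, 2 of the 18 were higher and 12 lower at any size by TMM, against 37.7% and 34.8% of all genes, and 4 and 7 with library size alone, against 49.8% and 21.5%.

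Of 58 mitochondrial ribosomal proteins, 37 were higher and 6 lower at any size, against 31.5% and 34.2% of all genes, and the median was 0.63 on the log2 scale. *MRPL28*, *MRPS6* and *MRPL50* were highest, at 1.81, 1.56 and 1.54, and *MRPL57*, *MRPS26* and *MRPL42* lowest, at -0.85, -0.65 and -0.59. Of 38 other assembly factors, 19 were higher and 7 lower at any size, against the same shares. The copper chaperones *SCO2* and *SCO1* and the complex I factor *NUBPL* were higher by 1.84, 1.74 and 1.89, and *NDUFAF8*, *LYRM7* and *NDUFAF3* lower by log2 fold changes of -1.27, -1.21 and -0.87. *CYC1*, the haem protein of complex III, was higher by 0.58, and *HCCS*, which attaches haem to cytochrome c, was at -0.81. Among 14 genes of mitochondrial biogenesis and DNA upkeep, 9 were higher and 3 lower at any size, again against 31.5% and 34.2% of all genes. *SSBP1*, *TFB1M* and *POLG* were higher by 1.63, 1.41 and 1.15, whereas *TFAM*, which packages mitochondrial DNA, was at 382 ± 66.7 FPKM in yak and 52.3 ± 0.742 in cattle–yak, or a log2 fold change of -2.83 ± 0.16. *POLG2* and *PPARGC1A* were lower, with -1.33 and -2.71, the latter on 0.153 ± 0.101 FPKM in cattle–yak. From 6 months to 4 years, by TMM, 14 of the ribosomal proteins were higher and 27 lower, 12 and 11 of the other assembly factors, and 4 and 6 of the biogenesis genes, against 37.7% and 34.8% of all genes. With library size alone the counts turned to 21 and 8, 15 and 4, and 6 and 1, against 49.8% and 21.5%.

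**Figure D5:**
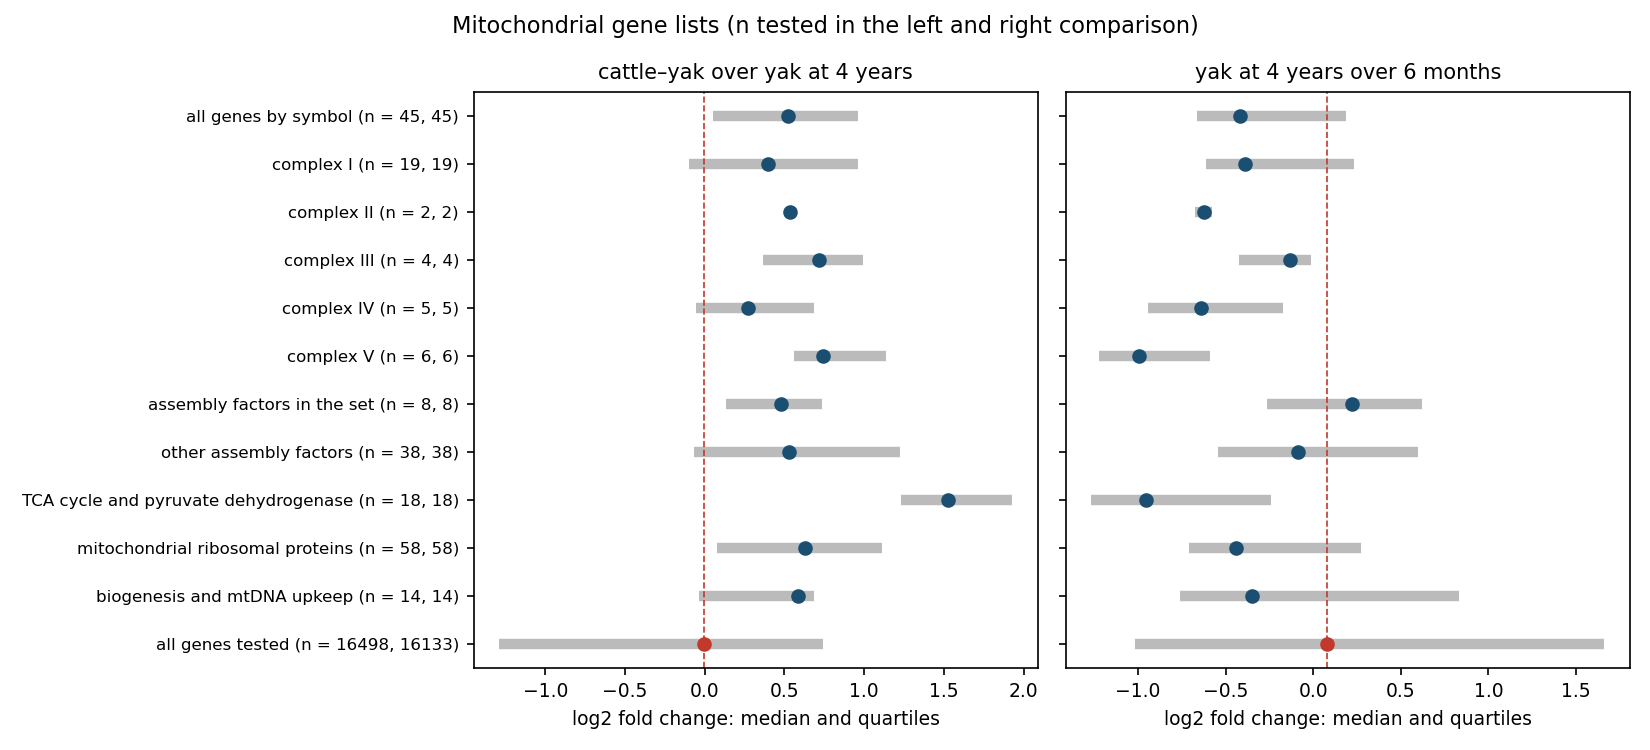
Median (point) and quartiles (bar) of the log2 fold change in each complex and in other mitochondrial gene lists, for cattle–yak over yak at 4 years (left) and yak at 4 years over 6 months (right). The red point and dashed line are the median of all genes tested. On the left the medians of all complexes lie above it and the tricarboxylic acid cycle is highest at 1.52, and on the right, which is scaled by TMM, of the lists drawn only the 8 assembly factors of the set lie above it.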

How the data were processed

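Ribo-seq libraries of 12 testes, 1 per animal, were analysed in 4 groups of 3 as labelled. Per the study's methods, reads were trimmed with fastp, cleared of rRNA with Bowtie2 and of other small RNA with BLAST, limited to 20 to 40 bases and aligned to BosGru 3.0 with STAR. Per gene, the authors estimated expected counts with RSEM, and the deposited values are whole numbers. The FPKM values, deposited beside them by the authors, are scaled by gene length and library total. The deposited fold changes and p-values of the authors' comparisons, and tables of group means, were not used. Counts that sit in 2 tables were identical.

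After filterByExpr and TMM scaling, 2 groups at a time were compared with edgeR 4.0.16 (R 4.3.3), whose quasi-likelihood test was adjusted by Benjamini-Hochberg over all genes tested. The standard error was approximated as the log2 fold change over the square root of F. Alternatives were DESeq2 1.42.0, RLE or library size alone, no filter, all 12 libraries, limma 3.58.1 on log2(FPKM + 1) or log2(FPKM + 0.1), each library left out, and a block for the replicate number. The fits were tested on simulated data. The members, gene lists and markers were chosen with earlier results of these data known. Named were the isoforms and their partners, the catalytic core, the 5 members highest and lowest past an adjusted p of 0.05, and 3 each of the other lists. Transcription and translation efficiency were not analysed here, and no sequence is shown. The values of 1 gene of the set enter the counts and medians and are not reported here.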

Additional observations from a re-analysis of the deposited data

How the results depend on the processing

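In cattle–yak against yak at 4 years, the median of the set relative to all genes ran from 0.51 to 0.59 on the log2 scale over the alternatives other than leaving out a library. Over the 45 genes and all alternatives, 611 values kept their DTG call or the lack of it, 14 gained the call and 5 lost it, and none reversed. With all 12 libraries in 1 fit, 1 gene was a lower DTG in place of 2 and 3 were lower at any size in place of 5. Leaving out 1 library gave 10 to 15 higher DTGs, 0 to 2 lower, 23 to 26 higher and 3 to 5 lower at any size, and a median of 0.48 to 0.64. Without library 1 of yak at 4 years no lower DTG remained, and the higher DTGs were 15. In yak at 18 months against 6 months, the median of 0.06 became 0.43 with library size alone, 0.41 with limma on log2(FPKM + 0.1) and 0.40 with log2(FPKM + 1). DTGs higher were 1 by DESeq2, 1 with 12 libraries and 1 by limma on log2(FPKM + 0.1), and at any size 2, 3 and 1, with 1 lower with 12 libraries. Leaving out a library gave 0 to 1 higher and 0 to 2 lower DTGs, 0 to 2 in each direction at any size, and medians of -0.05 to 0.07. In yak at 4 years against 18 months, the median of -0.29 became -0.10 with library size alone and with limma on either scale. DESeq2 gave 1 higher and 2 lower DTGs and 2 and 4 at any size, and 12 libraries gave 1 and 3, and 3 and 13. Leaving out a library gave 0 to 3 higher and 0 to 4 lower DTGs, 0 to 5 and 0 to 14 at any size, and medians of -0.38 to -0.24, with the upper counts without library 2 of 18 months. In yak at 4 years against 6 months, the median was 0.14 with library size alone and 0.15 with limma on either scale, against -0.42. The same 3 alternatives gave 8 higher DTGs each, 3, 3 and 2 lower DTGs, and 15 higher and 6 lower each at any size. Of all genes, 49.8% were higher and 21.5% lower at any size with library size alone. Apart from this fit and the one without library 2 of 18 months, shares of all genes were not taken for the alternatives. The counts of the other alternatives are therefore not read against all genes. Leaving out a library gave 2 to 3 higher and 6 to 7 lower DTGs, 4 to 7 and 16 to 23 at any size, and medians of -0.50 to -0.31. With library size alone, the median of all genes moved with that of the set. The limma fits also change the unit and the model, and the cause of their shift was not tested.

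The balance of COX6A2/COX6A1 passed with TMM-scaled CPM, with an adjusted permutation p of 0.029 against 0.22. Leaving out each library gave adjusted permutation p-values of 0.077 to 0.83 for this pair, 0.0003 to 0.031 for COX6B2/COX6B1, 0.00023 to 0.014 for COX7B2/COX7B, 0.0095 to 0.031 for COX8C/COX8A, 0.0087 to 0.040 for COX4I2/COX4I1, 0.00023 to 0.018 for COX7A1/COX7A2 and 0.0031 to 0.015 for NDUFA4L2/NDUFA4. Libraries with the same replicate number did not deviate together, with correlations of -0.11 to 0.071. With the replicate number as a block there were 10 higher and 2 lower DTGs in cattle–yak against yak at 4 years, and 4 higher and 6 lower in yak at 4 years against 6 months. With 3 animals per group and a juvenile COX7B2 of 7 to 17 counts, small differences in low genes could not be shown at this depth. The limit was wider in the comparisons with 18 months. On simulated data 25.5% of 4-fold changes were found for yak at 18 months against 6 months and 0% for 4 years against 18 months.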
